A study of Mus musculus with 16 samples.

Results

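The genes described here are 10 interferon-stimulated genes of the ISG15 pathway and of direct antiviral defence: Isg15, Usp18, Herc6, Rsad2, Cmpk2, Mx1, Mx2, Bst2, Rtp4 and Xaf1. They were chosen by name, with earlier results of these data known, so counts among them are a description. They are 10 of the 55450 genes of the deposited table. All 10 were measured above the filter of a mean of 1 CPM (counts scaled to the size of the library) that left 11675 genes for testing. The RNA came from primary hepatocytes of wild-type mice, which the methods describe as male C57BL/6J animals of 8 to 12 weeks, kept overnight in complete medium with serum and insulin. The 4 groups were left untreated, received 10 mM itaconate (as the sodium salt), received a defined mixture of lipids at a 10-fold dilution, or were given both agents. Each group had 4 libraries with the replicate letters A to D, and each letter held 1 library of every group. The cells were freshly isolated by perfusion, digestion and low-speed centrifugation, so other liver cells can remain among them, and no group received an interferon or a virus. Whether the 4 libraries of a group came from separate mice is not stated in the labels. The p-values therefore measure the spread between these libraries, in the main model what remains of it after differences between replicate letters are removed.

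Type I interferons bind a receptor that signals through JAK kinases to transcription factors, IRF9 among them, that bind the interferon-stimulated response element (ISRE) in front of many antiviral genes. ISG15 is a ubiquitin-like protein that is attached to other proteins by an E1 enzyme (UBA7), an E2 enzyme (UBE2L6) and an E3 ligase, which in mice is mainly HERC6, and is removed by the protease USP18, which also blocks the interferon receptor. RSAD2 (viperin) makes a chain-terminating nucleotide from CTP, and CMPK2 is a nucleotide kinase encoded beside it. MX1 and MX2 are dynamin-like GTPases, BST2 (tetherin) holds budding virus particles at the cell surface, RTP4 is a chaperone-like protein induced by interferon, and XAF1 is a pro-apoptotic partner of XIAP. Itaconate is a metabolite that activated macrophages make from aconitate.

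On GRCm38, Isg15 lay at chr4:156199424-156200818 (minus strand), Usp18 at chr6:121245906-121270917 (plus), Herc6 at chr6:57581000-57664632 (plus), Bst2 at chr8:71534255-71537456 (minus), Rtp4 at chr16:23520291-23614222 (plus) and Xaf1 at chr11:72301629-72313733 (plus). Rsad2 at chr12:26442746-26456452 (minus) and Cmpk2 at chr12:26469204-26479837 (plus) stood head to head, 12751 bases apart with 0 annotated genes between them. Mx1 at chr16:97447035-97462907 (minus) and Mx2 at chr16:97535308-97560900 (plus) lay 72400 bases apart and are paralogs. The annotation calls Mx2 a polymorphic pseudogene and the other 9 genes protein-coding. Expected counts that were not whole numbers, the mark of reads divided between genes, occurred in 12 of the 16 libraries for Mx1 and for Mx2, in 9 for Rtp4 and in 7 for Herc6, and in 0 libraries for the other 6 genes. Rtp4 overlapped Masp1 on the other strand (525 bases) and Gm45338 on its own strand, Herc6 overlapped Gm45193 on its own strand, and Usp18 overlapped Gm44148 on the other strand, so the levels of these 3 genes and of the Mx pair are less certain than the rest.

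Promoter windows of 300 bases, from 250 before to 50 after the start, were held by RefSeq (GRCm38.p6) for 6 of the 10 genes: Isg15, Herc6, Bst2, Xaf1, Rsad2 and Cmpk2. The ISRE core, searched as GAAANNGAAA on both strands, stood in 3 of the 6 windows and in 3.44% of all 32851 mouse promoter windows of that table. The 3 windows that hold it are printed because interferon-activated transcription factors read this motif, with each run of the core in capitals. Isg15 carried 3 overlapping cores between −78 and −57, counted from the start, Bst2 carried 2 overlapping cores between −130 and −115, and Rsad2 carried 1 core on the other strand between −120 and −111.
Isg15 (chr4:156200769-156201068, minus strand): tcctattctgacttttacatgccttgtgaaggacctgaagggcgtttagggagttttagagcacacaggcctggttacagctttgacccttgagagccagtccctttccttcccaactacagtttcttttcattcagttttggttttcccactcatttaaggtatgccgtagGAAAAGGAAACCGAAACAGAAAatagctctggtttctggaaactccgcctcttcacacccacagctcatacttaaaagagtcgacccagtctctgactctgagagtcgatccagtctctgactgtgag
Bst2 (chr8:71537423-71537722, minus strand): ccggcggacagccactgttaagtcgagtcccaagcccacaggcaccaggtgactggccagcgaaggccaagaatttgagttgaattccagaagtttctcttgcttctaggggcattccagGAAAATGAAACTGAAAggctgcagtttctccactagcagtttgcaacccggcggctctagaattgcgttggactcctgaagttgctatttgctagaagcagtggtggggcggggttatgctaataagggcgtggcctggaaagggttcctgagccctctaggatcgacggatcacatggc
Rsad2 (chr12:26456403-26456702, minus strand): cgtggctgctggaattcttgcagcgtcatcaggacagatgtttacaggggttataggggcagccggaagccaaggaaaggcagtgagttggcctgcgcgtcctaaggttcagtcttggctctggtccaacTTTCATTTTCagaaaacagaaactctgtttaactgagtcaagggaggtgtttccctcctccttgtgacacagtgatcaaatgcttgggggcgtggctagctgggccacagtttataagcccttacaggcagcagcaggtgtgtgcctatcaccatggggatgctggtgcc
The GAS core, searched as TTCNNNGAA on both strands, stood only in the Bst2 window among the 6 (at −136 to −128, where it overlaps the first ISRE core) and in 8.30% of all windows. These letters were not found in the windows of Herc6, Xaf1 and Cmpk2, and a match is a description of the sequence, not of binding.

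The libraries held 22346049 to 35512004 expected counts each. Within a group, libraries differed from each other by 10.0 to 147 times counting noise (chi-square per gene over 24 pairs), so no 2 were duplicates. The highest 3 of these pairs were those of the lipid + itaconate library B (106 to 147), every other pair was at 64.5 or less, and counts of the 10 genes are therefore also given without letter B. Leaving out the lipid + itaconate library C raised the calls over all genes most, from 573 to 1051 with itaconate alone and from 301 to 891 with itaconate on top of lipid, while 9 and 5 of the 10 genes were called as before. All 10 hepatocyte markers looked at, including albumin and apolipoproteins, were measured, and they summed to 47203 to 62957 CPM in untreated, 47338 to 63411 in itaconate, 40934 to 52990.3 in lipid and 36939 to 58337 in lipid + itaconate libraries.

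Isg15 encodes the modifier itself. It stood at 142, 103, 129 and 181 CPM in untreated replicates A, B, C and D, and at 88.2, 65.9, 68.5 and 104 CPM in the itaconate replicates in that order. With lipid alone it stood at 73.1, 58.4, 69.6 and 101 CPM, and with lipid + itaconate at 53.9, 44.9, 54.7 and 84.0 CPM. In every letter the untreated library was the highest and the lipid + itaconate library the lowest, and letter D was the highest within each treatment. The lipid libraries all lay below the untreated ones, while those of itaconate overlapped them, because itaconate D lay just above untreated B. Group means were 139 ± 32.5 (SD, n = 4) in untreated, 81.7 ± 18.0 in itaconate, 75.6 ± 18.3 in lipid and 59.4 ± 17.0 CPM in lipid + itaconate cells.

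Usp18, the protease that takes ISG15 off its targets, followed the same order of means. Its levels were 103, 81.5, 125 and 144 CPM in untreated replicates A to D and 62.0, 53.0, 67.5 and 93.0 CPM with itaconate. They were 54.1, 48.6, 62.7 and 81.8 CPM with lipid and 38.7, 35.0, 54.6 and 62.3 CPM with lipid + itaconate. Each letter descended from untreated through itaconate and lipid to the combination, and the letters differed enough that the itaconate and lipid groups each overlapped the untreated one. Over the 16 libraries Usp18 and Isg15 had the highest correlation of log2 CPM of the 45 pairs among the 10 genes (r = 0.956), a description over libraries that share treatments and letters.

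Herc6, the ISG15 ligase, had another order. It was measured at 61.6, 47.4, 49.2 and 75.7 CPM in untreated replicates A to D and at 39.5, 31.0, 31.7 and 47.1 CPM with itaconate, where no library reached the lowest untreated one. With lipid it was at 42.9, 43.1, 34.7 and 47.5 CPM and with lipid + itaconate at 34.0, 29.0, 46.2 and 51.8 CPM. The lipid library was above the itaconate library in all 4 letters, and the combination lay below lipid in letters A and B and above it in C and D. The mean was lowest with itaconate alone (37.3 ± 7.54 CPM, SD, n = 4), against 58.5 ± 13.1 untreated, 42.0 ± 5.31 with lipid and 40.3 ± 10.6 with both.

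Rsad2, which encodes viperin, was lower with itaconate than with lipid. Its values were 399.8, 228, 366 and 542 CPM in untreated replicates A to D and 195, 129, 171 and 218 CPM with itaconate. They were 199.9, 166, 228 and 302 CPM with lipid and 142, 113, 129.9 and 199.9 CPM with lipid + itaconate. All itaconate libraries lay below all untreated ones, and in every letter itaconate gave a lower level than lipid, the reverse of the order of Isg15, Usp18 and Cmpk2 means. Means were 384 ± 129 CPM (SD, n = 4) untreated, 224 ± 57.7 with lipid, 178 ± 38.1 with itaconate and 146 ± 37.6 with both.

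Cmpk2, its neighbour on chromosome 12, was the gene most reduced by lipid. It stood at 94.5, 52.5, 88.5 and 109 CPM in untreated replicates A to D, at 51.6, 33.9, 53.7 and 58.4 CPM with itaconate, and at 31.8, 21.4, 31.9 and 40.4 CPM with lipid. With lipid + itaconate it stood at 21.1, 13.9, 23.2 and 31.1 CPM, which averaged 25.9% of the untreated mean, the lowest share among the 10 genes. Untreated B was low for this gene, so the itaconate group overlapped the untreated group, whereas neither lipid group did. Lipid was below itaconate in all 4 letters.

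The Mx pair is named for the antiviral MX GTPases. The annotation calls Mx2 a polymorphic pseudogene, and whether these cells make a working protein from either gene was not measured. Mx1 had 14.0 to 88.5 expected counts per library, the fewest of the 10 genes, and ranged over 0.982 to 3.18 CPM in untreated, 1.17 to 2.03 in itaconate, 0.677 to 1.32 in lipid and 0.539 to 1.54 in lipid + itaconate libraries. The lowest untreated value was that of letter B, below all 4 itaconate libraries. Mx2 ranged over 23.1 to 35.8 CPM in untreated, 18.6 to 28.9 in itaconate, 14.4 to 22.2 in lipid and 14.1 to 21.9 in lipid + itaconate libraries. For Mx2 the lipid group lay below the untreated group without overlap, and the means with lipid (17.7 ± 3.55 CPM, SD, n = 4) and with both (17.7 ± 3.97) were nearly the same.

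Bst2, which encodes tetherin, kept the highest share of its untreated mean among the 10 genes with lipid (80.8%) and with lipid + itaconate (78.1%). It ranged over 217 to 278 CPM in untreated, 182 to 244 in itaconate, 183 to 228 in lipid and 168 to 229 in lipid + itaconate libraries. The untreated library was the highest in all 4 letters, and the 3 treated means (78.1% to 81.7% of the untreated mean) lay within 1 SD of each other.

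Rtp4 had the tightest untreated group, with 68.3, 69.2, 67.6 and 72.5 CPM in replicates A to D. It was at 50.01, 50.7, 45.6 and 61.6 CPM with itaconate and at 37.5, 36.4, 31.9 and 37.4 CPM with lipid, and neither group reached the untreated range or the other's. The combination gave 31.7, 28.04, 38.5 and 38.0 CPM, which overlapped lipid alone. Xaf1 stood at 47.6, 38.5, 39.6 and 47.0 CPM in untreated replicates A to D and at 32.5, 28.9, 28.5 and 32.9 CPM with itaconate, again without overlap. It stood at 32.6, 21.9, 26.7 and 30.7 CPM with lipid and at 21.1, 19.8, 23.3 and 26.6 CPM with both, where the level was the lowest of the 4 treatments in every letter.

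**Figure D1:**
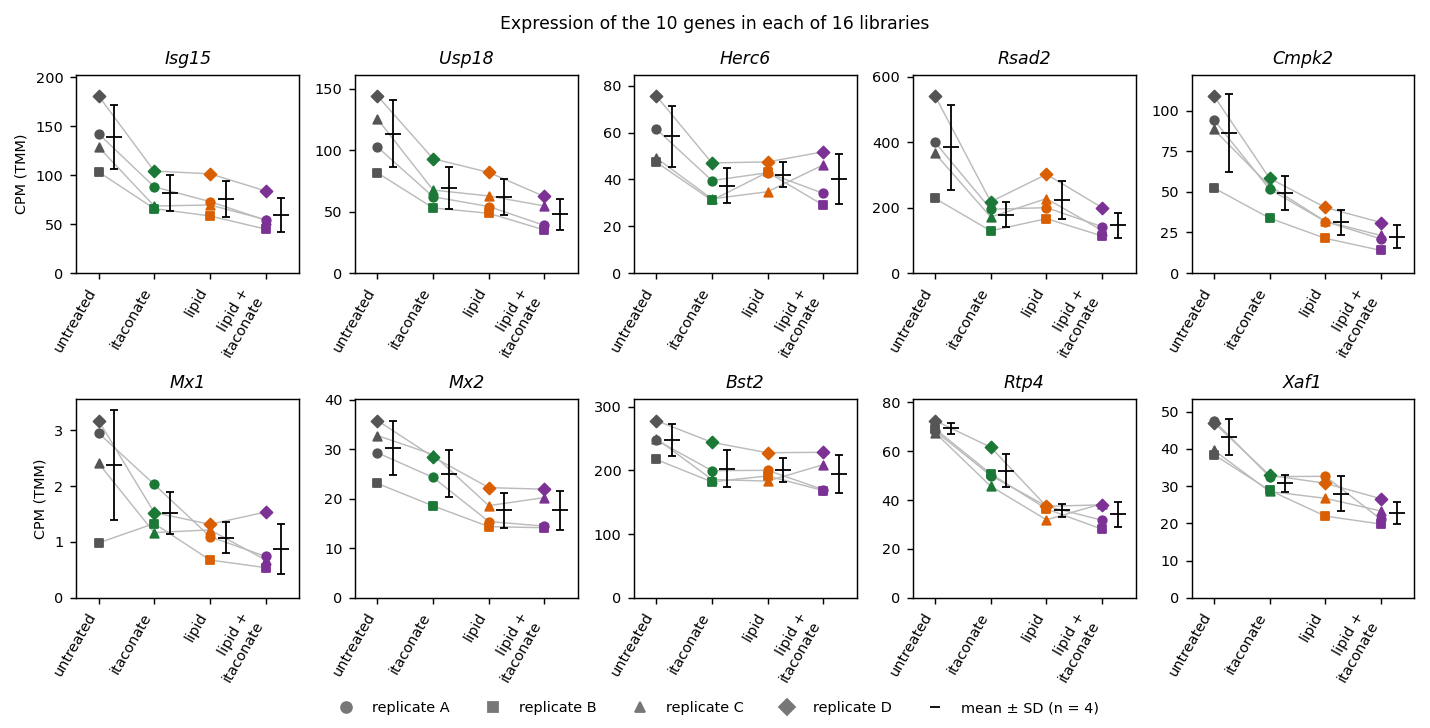
Each panel plots TMM-normalised CPM of 1 gene (y axis from 0) in the 16 libraries by treatment (x axis), with a marker for each replicate letter, grey lines joining the libraries of a letter and the mean ± SD of 4 libraries beside them. In 9 of the panels the untreated library is the highest of every letter, the exception being Mx1 in letter B, and Herc6 is lowest on average with itaconate alone.

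To compare levels between genes, CPM was divided by the length of the merged exons in kilobases (RPKM). In untreated cells Bst2 was the most abundant per length (275 ± 27.7 RPKM, SD, n = 4), followed by Isg15 (184 ± 43.0) and Rsad2 (88.6 ± 29.7). Usp18 (40.7 ± 9.76 RPKM), Rtp4 (32.6 ± 1.02) and Cmpk2 (20.7 ± 5.79) came next. Xaf1 (9.21 ± 1.02 RPKM), Mx2 (8.36 ± 1.51) and Herc6 (6.29 ± 1.41) were low, and Mx1 (0.629 ± 0.260) was lowest by far. The ranges of neighbours in this order that lie within their summed SDs are those of Usp18 and Rtp4, of Xaf1 and Mx2, and of Mx2 and Herc6.

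The first comparison asked what itaconate does to these genes without lipid. Of the 10 genes, 9 fell with itaconate: Rsad2 by the most (−1.07 ± 0.081 on the log2 scale, SE), then Cmpk2 (−0.79 ± 0.059), Isg15 (−0.76 ± 0.057), Usp18 (−0.72 ± 0.055), Herc6 (−0.64 ± 0.12), Xaf1 (−0.49 ± 0.072), Rtp4 (−0.42 ± 0.080), Bst2 (−0.30 ± 0.060) and Mx2 (−0.27 ± 0.068). Each of the 9 was lower in 4 of 4 letters. Mx1 was −0.59 ± 0.24, lower in 3 of 4 letters, and did not pass (adjusted p = 0.173). The median over the 10 genes was −0.62, against −0.0019 over all 11675 genes.

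These calls came from edgeR's quasi-likelihood test with Benjamini-Hochberg adjustment over all genes and a term for the replicate letter. The adjusted p was 1.31e-06 for Isg15, Usp18, Rsad2 and Cmpk2, 0.00121 for Xaf1, 0.00552 for Herc6, 0.00828 for Rtp4, 0.0120 for Bst2 and 0.0317 for Mx2. Of all genes tested, 2.95% were called lower in this comparison, against 9 of these 10. The 4 itaconate libraries lay below all 4 untreated ones for Herc6, Rsad2, Rtp4 and Xaf1, 4 of 10 genes, where 3.86% of all genes did so. Without the letter term 0 of the 10 genes passed (adjusted p 0.0724 for Rsad2 to 0.553 for Mx2 among those 9), while 8 had an unadjusted p under 0.05. In that model 23 genes in all were called, and how many of all genes had an unadjusted p under 0.05 was not computed. Without the 4 libraries of letter B, with the term kept, 7 of the 10 were called, as were 1.98% of all genes.

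Some of these calls were lost when 1 library was left out. Mx2 did not pass without any 1 of the 4 untreated libraries or without itaconate B, C or D (adjusted p 0.0654 to 0.134). Its log2 fold change stayed between −0.311 and −0.225 over all 23 alternative models. Bst2 did not pass without untreated A (0.0630) or itaconate C (0.0716), nor Rtp4 without itaconate C (0.0545). Isg15, Usp18, Herc6, Rsad2, Cmpk2 and Xaf1 passed whichever 1 library was left out. These values are adjusted p from edgeR.

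**Figure D2:**
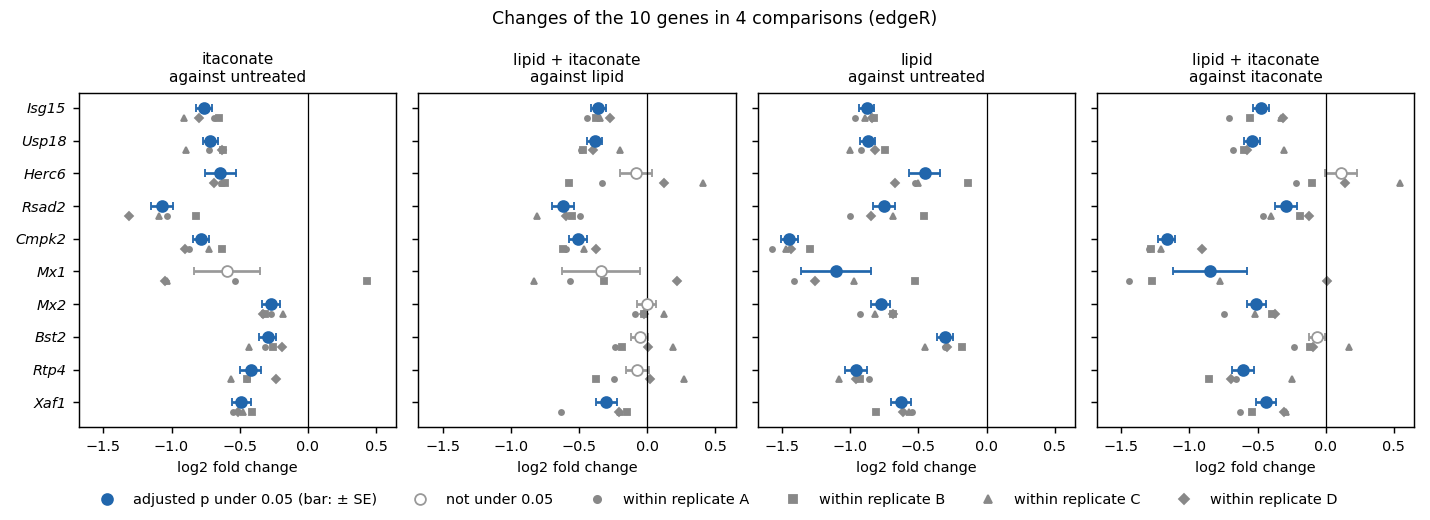
The 4 panels plot the log2 fold change of each gene (x axis) in 4 comparisons, with large circles for the edgeR estimate ± SE, filled where the adjusted p was under 0.05, and small grey markers for the change within each replicate letter. With itaconate alone 9 genes are filled, with itaconate in the presence of lipid 5, with lipid alone 10, and with lipid in the presence of itaconate 8, all of them below 0.

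The second comparison asked what lipid alone does. All 10 genes fell, each in 4 of 4 letters: Cmpk2 (−1.45 ± 0.061 on the log2 scale, SE), Mx1 (−1.10 ± 0.26), Rtp4 (−0.96 ± 0.082), Isg15 (−0.88 ± 0.057), Usp18 (−0.87 ± 0.056), Mx2 (−0.78 ± 0.070), Rsad2 (−0.75 ± 0.080), Xaf1 (−0.63 ± 0.072), Herc6 (−0.45 ± 0.12) and Bst2 (−0.31 ± 0.060). Their median was −0.82, against 0.0047 over all genes. By edgeR the adjusted p ran from 4.16e-10 for Cmpk2 to 0.00445 for Herc6. Lipid moved much of the transcriptome: 23.7% of all genes were called lower in this comparison, against 10 of these 10. Isg15, Cmpk2, Mx2, Rtp4 and Xaf1 had lipid libraries that all lay below the untreated ones, 5 of 10 genes, where 15.9% of all genes did. Without the letter term Herc6 alone lost its call (adjusted p = 0.0543), and without letter B all 10 kept theirs. In these models 35.5% and 40.1% of all genes were called in either direction.

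The third comparison asked what itaconate does when lipid is present. With lipid in both groups, 5 of the 10 genes fell further with itaconate: Rsad2 (−0.61 ± 0.081 on the log2 scale, SE), Cmpk2 (−0.51 ± 0.065), Usp18 (−0.39 ± 0.057), Isg15 (−0.36 ± 0.058) and Xaf1 (−0.30 ± 0.074). Each of the 5 was lower in 4 of 4 letters. The ligase gene Herc6 (−0.079 ± 0.12), Mx1 (−0.34 ± 0.29), Mx2 (−0.0047 ± 0.071), Bst2 (−0.055 ± 0.060) and Rtp4 (−0.073 ± 0.084) did not pass. Herc6, Bst2 and Rtp4 were lower in letters A and B and higher in C and D.

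By edgeR the adjusted p was 0.000876 for Cmpk2, 0.00117 for Rsad2, 0.00290 for Usp18, 0.00527 for Isg15 and 0.0452 for Xaf1. For those that did not pass, the estimate ± 2 SE ran from −0.31 to 0.16 for Herc6, −0.91 to 0.23 for Mx1, −0.15 to 0.14 for Mx2, −0.18 to 0.066 for Bst2 and −0.24 to 0.10 for Rtp4, so a fall of Mx1 as large as that without lipid lies inside its interval. The median over the 10 genes was −0.32 against −0.00013 over all genes, and 1.26% of all genes were called lower, against 5 of these 10. In 0 of the 10 genes did the groups not overlap, where 2.85% of all genes had no overlap in this direction.

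The calls with lipid present depended on the model. With no letter term 0 of the 10 genes passed (2 had an unadjusted p under 0.05, and 9 genes in all were called). With only the 8 lipid libraries in the model 1 did, Rsad2, where 14 genes in all were called. Xaf1 stood nearest the threshold and lost its call in 14 of the 16 models that each left out 1 library (adjusted p 0.0531 to 0.172), and it kept it without lipid B or without lipid + itaconate C. Isg15, Usp18, Rsad2 and Cmpk2 passed in all 16 of those models and without letter B.

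The fourth comparison asked what lipid does when itaconate is present. Here 8 of the 10 genes fell: Cmpk2 (−1.17 ± 0.063 on the log2 scale, SE), Mx1 (−0.85 ± 0.27), Rtp4 (−0.61 ± 0.083), Usp18 (−0.54 ± 0.057), Mx2 (−0.51 ± 0.070), Isg15 (−0.47 ± 0.058), Xaf1 (−0.44 ± 0.074) and Rsad2 (−0.29 ± 0.081). Herc6 was 0.11 ± 0.12 (adjusted p = 0.470 by edgeR) and Bst2 −0.066 ± 0.060 (adjusted p = 0.387), with ± 2 SE of −0.13 to 0.34 and −0.19 to 0.055. The median was −0.49 against 0.0041 over all genes. Of all genes, 23.5% were called lower, against 8 of these 10, and for Cmpk2, Rtp4 and Xaf1, 3 of 10, the groups did not overlap, where 14.8% of all genes had no overlap in this direction. With no letter term 4 of the 10 passed (Cmpk2, Mx2, Rtp4 and Xaf1), where 34.2% of all genes passed in either direction. Mx1 was lower in 3 of 4 letters and lost its call without itaconate A, itaconate B or lipid + itaconate A (adjusted p 0.0626 to 0.0798). Without the libraries of letter B, 7 of the 10 were called, where 40.6% of all genes were called in either direction. Mx1 was not among the 7 (adjusted p = 0.0584 by edgeR).

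The interaction asked whether the itaconate change differed with and without lipid. For all 10 genes the estimate was positive, which is a smaller fall, or none, with lipid: from 0.19 ± 0.10 (SE) for Xaf1 to 0.56 ± 0.16 for Herc6 on the log2 scale, with a median of 0.31 against 0.0043 over all genes. Within letters the difference was positive in 4 of 4 letters for 8 of the 10 genes, in 3 letters for Xaf1 and in 2 for Mx1. How many of all genes were positive in every letter was not computed. By edgeR 0 of the 10 genes passed the adjusted threshold (lowest adjusted p = 0.158, for Isg15). Of all genes tested a single one passed (0.00857%), and it was not among the 10. An unadjusted p under 0.05 was reached by 8 of the 10 and by 1004 of all 11675 genes. DESeq2's Wald test called 3 of the 10 (Isg15, Usp18 and Rsad2, adjusted p 0.00812, 0.0415 and 0.0287) and 0.308% of all genes. The estimates of the 2 smallest unadjusted p, those of Isg15 (0.40 ± 0.081) and Usp18 (0.33 ± 0.079), had intervals of ± 2 SE from 0.24 to 0.57 and 0.17 to 0.49.

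**Figure D3:**
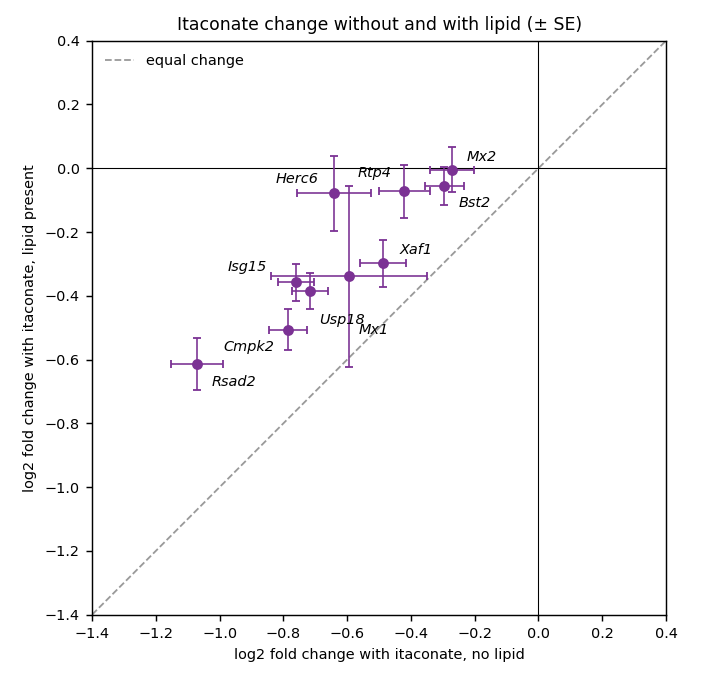
The log2 fold change with itaconate in the absence of lipid (x axis) is plotted against that in its presence (y axis) for the 10 genes, with bars of ± SE and a dashed line where both are equal. All 10 points lie above the line, Rsad2 has the largest fall on both axes, and Herc6, Rtp4, Bst2 and Mx2 lie close to 0 on the y axis.

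The rest of the ISG15 conjugation system was read from a list of 8 genes, of which 7 were tested. With itaconate alone 6 of the 7 fell: beside Isg15, Usp18 and Herc6 these were Uba7, the E1 enzyme (−0.63 ± 0.14, SE, adjusted p = 0.0150), Ube2l6, the E2 enzyme (−0.35 ± 0.080, adjusted p = 0.0209), and Trim25, a ubiquitin and ISG15 ligase (−0.26 ± 0.045, adjusted p = 0.00396), all by edgeR. Arih1, a ubiquitin ligase that also binds the E2 enzyme of this system, was 0.075 (adjusted p = 0.427). With lipid alone the same count of 6 fell, with Uba7 at −0.60, Ube2l6 at −0.44 and Trim25 at −0.35 on the log2 scale, and Arih1 at −0.033. With itaconate on top of lipid 2 of the 7 fell, Isg15 and Usp18, and Uba7 (−0.40, adjusted p = 0.155), Ube2l6 (−0.011) and Trim25 (−0.018) did not pass. With lipid on top of itaconate 3 of the 7 fell, Isg15, Usp18 and Uba7, and with 1 library left out 2 to 5 did, the 5 being without lipid + itaconate C. Uba7 overlaps the protein-coding Gm20661 on its own strand (1003 bases), so its level is less certain too. Of all genes, 2.95%, 23.7%, 1.26% and 23.5% were called lower in these 4 comparisons, in the order given. Without the letter term the counts of the list were 0, 5, 0 and 0 of 7 in the same order. There 0.197%, 35.5%, 0.0771% and 34.2% of all genes were called in either direction.

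The ligands that induce this system were hardly measured. Of 21 interferon genes listed, 17 had 0 counts in all 16 libraries and none reached the filter. Ifnb1, the interferon beta gene, had at most 3 counts in a library, and the 21 genes summed to at most 0.414 CPM in any library. Differences in ligand transcripts were therefore not detectable at this depth.

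Among 17 tested genes of the interferon receptors and their signalling, 1 fell with itaconate alone and 0 rose, where 2.95% of all genes were called lower. The 1 gene was Irf9 (−0.18 ± 0.048, SE, adjusted p = 0.0366 by edgeR), which encodes a DNA-binding part of the factor that reads the ISRE. The median of the 17 was 0.011. With lipid present, 0 of the 17 fell with itaconate (Irf9 was at −0.043, adjusted p = 0.684 by edgeR), and Socs3, a feedback inhibitor of JAK kinases, rose (0.41 ± 0.066, adjusted p = 0.00501). With lipid alone 9 of the 17 fell and 1 rose, where 23.7% of all genes were called lower. Irf9 was at −0.30 and Socs3 at −0.77 on the log2 scale there. Without the letter term the counts with itaconate were 0 of 17 in both comparisons. With itaconate alone 0 of the 17 fell without any 1 of the 8 untreated or itaconate libraries, and 2 fell without lipid C or without lipid + itaconate C. With lipid present 1 of the 17 rose with itaconate in each of the 16 models that left out 1 library.

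**Figure D4:**
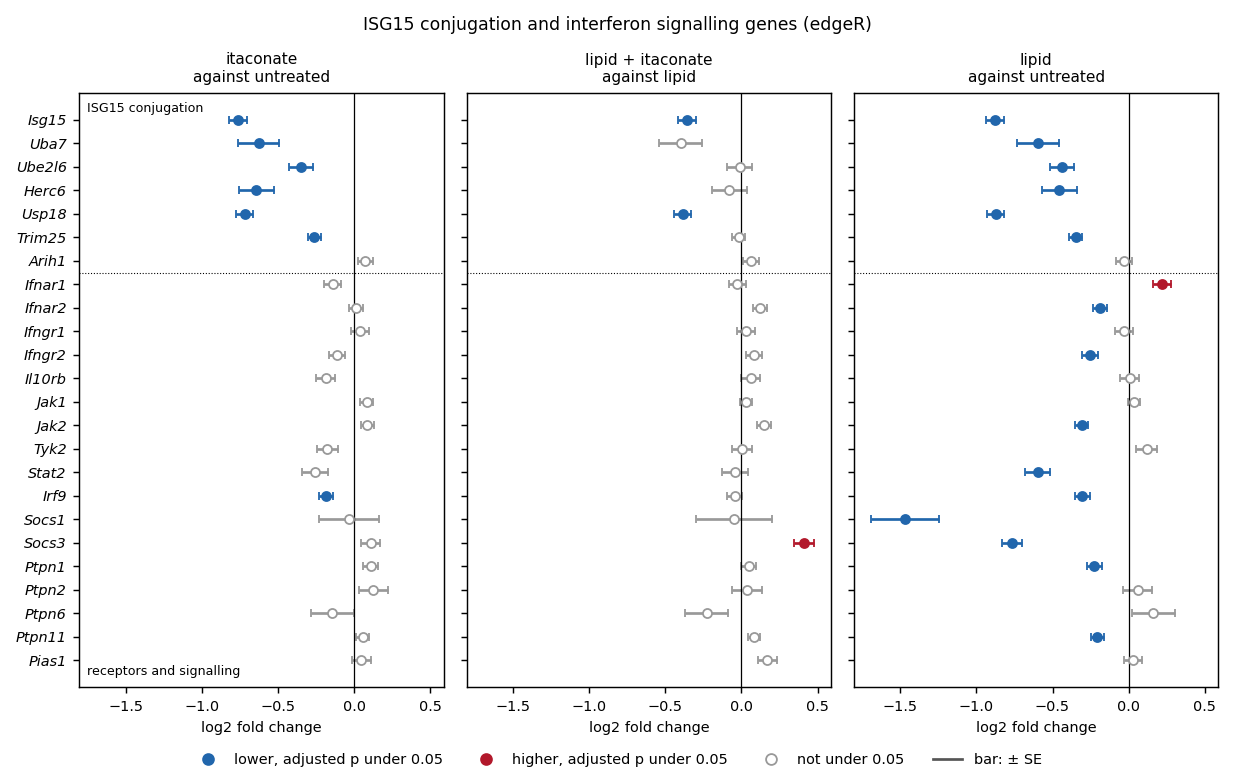
Log2 fold changes ± SE (x axis) from edgeR are plotted for the 7 measured genes of ISG15 conjugation, above the dotted line, and 17 genes of interferon receptors and signalling, below it, in 3 comparisons, with filled circles at an adjusted p under 0.05. With itaconate alone 6 of the upper 7 and 1 of the lower 17 are filled below 0, with itaconate on top of lipid 2 and 0, and with lipid alone 6 and 9.

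Other interferon-stimulated genes gave the wider setting, from a list of 59 of which 54 were tested. With itaconate alone 43 fell and 0 rose (median −0.55 on the log2 scale). Those that fell were led by Ifit3b (−1.56 ± 0.12, SE), Ifit3 (−1.38 ± 0.11), Ifit1 (−1.26 ± 0.086), whose protein binds foreign RNA, and the oligoadenylate synthetase-like gene Oasl2 (−1.08 ± 0.20). Ifit3 and Ifit3b are near copies that can share reads. With lipid alone 53 fell (median −0.75), with lipid on top of itaconate 41 (median −0.44), and with itaconate on top of lipid 9 fell and 1 rose (median −0.16). In these comparisons, itaconate alone first, 2.95%, 23.7%, 23.5% and 1.26% of all genes were called lower. Without the letter term the counts lower were 5, 49, 25 and 0, where 0.197%, 35.5%, 34.2% and 0.0771% of all genes passed in either direction. With itaconate on top of lipid the count of 9 lower became 25 without lipid + itaconate C, where calls over all genes rose too, 4 without lipid D or lipid + itaconate A, 5 without lipid B, and 6 to 8 without any other 1 library. The lists were drawn up with earlier results of these data known, so their counts are a description.

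Likeness was measured as Pearson's r over the 16 libraries between a gene's log2 CPM and the mean of the 10 genes, each centred. Among the genes most like them were Lgals3bp (r = 0.980), a secreted glycoprotein, Ifit1 (0.978), Parp12 (0.971), an ADP-ribosyltransferase, and Ddx58 (0.971), which encodes the RNA sensor RIG-I. With itaconate alone Lgals3bp changed by −0.49, Parp12 by −0.47 and Ddx58 by −0.59 on the log2 scale (adjusted p = 0.000588, 0.00162 and 0.00104 by edgeR). With itaconate on top of lipid Ifit1 fell (−0.61, adjusted p = 0.00290 by edgeR). There Lgals3bp, Parp12 and Ddx58 were at −0.13, −0.10 and −0.17, and none of these 3 passed. Among the 10 genes themselves the 45 pairwise r ran from 0.622 (Herc6 with Mx2) to 0.956, with a median of 0.846. Isg15 was closest to the mean of the other 9 genes (r = 0.982) and Herc6 farthest from it (0.771). These libraries share treatments and letters, so the values describe likeness and carry no p.

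In bulk RNA, fewer cells of a type and less RNA per cell cannot be told apart, and markers of other liver cells are given for that reason. Of 10 macrophage markers 7 were tested, and the sum of the 10 was 181 to 289 CPM in untreated, 159.5 to 245 in itaconate, 232 to 328 in lipid and 215 to 319.6 in lipid + itaconate libraries, most of it Cd68, a lysosomal gene. With itaconate alone Cd68 fell (−0.24, adjusted p = 0.0108 by edgeR) and Lyz2, which encodes lysozyme, rose (0.50, adjusted p = 0.0166). Lyz2 lost its call without untreated B, untreated D, itaconate A or itaconate B, and both lost it without itaconate C. With itaconate on top of lipid 0 of the 7 passed. With lipid alone 3 of the 7 fell and Cd68 rose (0.43), where 23.7% of all genes were called lower. With lipid on top of itaconate 6 fell and Cd68 rose (0.58), where 23.5% of all genes were called lower. Their part in the changes of the 10 genes was not tested.

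Plasmacytoid dendritic cells, the main source of interferon alpha, were represented by 5 markers, of which Siglech and Ccr9 had at most 2 counts in a library and Klk1 had 0 counts in all. The other 2, Tcf4 and Irf8, which other cells also express, averaged 12.0 and 2.42 CPM, and neither passed in an itaconate comparison. Tcf4 was higher with lipid alone (0.24, adjusted p = 0.0203 by edgeR). The 8 lymphocyte markers all lay under the filter, with Nkg7 at 0 counts in all libraries, and summed to at most 0.432 CPM. Of 8 endothelial markers 6 were tested and 0 passed in either itaconate comparison, with a sum of 15.6 to 27.3 CPM in untreated and 14.3 to 22.9 in itaconate libraries. Of 8 stellate cell markers 1 was tested, and of 6 cholangiocyte markers 2, and 0 of them passed in either itaconate comparison. With lipid alone both tested cholangiocyte markers fell and 1 endothelial marker fell while 1 rose, where 23.7% of all genes were called lower. The tested cholangiocyte markers, Sox9 and Spp1, averaged 112 and 530 CPM, while Krt7, Krt19, Epcam and Cftr averaged at most 0.298 CPM. Whether the fall lay in cholangiocytes was not tested. Hepatocyte markers passed in 0 of 10 cases in both itaconate comparisons (2 were higher with itaconate on top of lipid when lipid + itaconate C was left out), in 4 (all lower) with lipid alone, where 23.7% of all genes were lower, and in 8 (7 lower) with lipid on top of itaconate, where 23.5% were. With 1 library left out the lower counts were 2 to 7 with lipid alone (2 without untreated C, lipid A or lipid B, and 7 without lipid C, lipid + itaconate B or lipid + itaconate C) and 3 to 8 with lipid on top of itaconate (3 without itaconate C).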

How the data were processed

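Bulk RNA-seq libraries of primary mouse hepatocytes were made by the authors with a stranded mRNA kit. The deposited values are the authors' expected counts per gene, not normalized, from RSEM 1.3.1 on GENCODE genes, after trimming (Cutadapt 1.18) and alignment to mm10 (STAR 2.7.0f). The strand setting of the counting is not given in the sources used here. The authors' later normalization, filter, batch removal and tests were not part of these values.

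Rounded expected counts were tested with edgeR 4.0.16 under R 4.3.3, using the 11675 genes whose mean over 16 libraries reached 1 CPM, TMM normalization, and the quasi-likelihood test with treatment and replicate letter in 1 model, Benjamini-Hochberg adjusted over all genes tested, with a threshold of 0.05. All p-values adjusted over genes come from this test unless another tool is named. Log2 CPM used a prior count of 0.5. Levels are CPM with the SD over 4 libraries, and intervals are ± 2 SE. The letter was in the main model because the authors removed a batch before their test and the letter is the only batch-like label. Deviations from the group means correlated positively for all 24 pairs of same-letter libraries (r 0.143 to 0.468, median 0.263). Over 72 pairs of other letters r ran from −0.435 to 0.178 (median −0.114). Centring each gene on its group mean pushes these values below 0, so they are no separate support. The batch that the authors removed is not named in their text.

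Identifiers of all 55450 genes were found in GENCODE M21 (GRCm38), which gave positions and exon lengths, and promoters came from RefSeq. Genes named are the 10 chosen, the ISG15 conjugation list, up to 4 genes from each other list that passed in an itaconate comparison, and the 5 genes most like the 10 over the libraries. A gene that these rules take in is not reported here, and counts of its list leave it out. The marker genes at or near 0 counts, the cholangiocyte markers and the genes overlapping the 10 were named outside this rule, after their values were seen. The 10 genes and the lists were chosen with earlier results of these data known. Alternatives were a model without the letter, RLE normalization, 2 other filters, only the 8 libraries of a comparison, DESeq2 1.42.0, each library left out in turn and, added after seeing the data, letter B left out.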

Additional observations from a re-analysis of the deposited data

How the results depend on the processing

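Leaving the replicate block out of the model changed the count of the 10 genes called from 9 to 0 for itaconate against untreated, from 5 to 0 for lipid + itaconate against lipid and from 8 to 4 for lipid + itaconate against itaconate, and from 10 to 9 for lipid against untreated. In that model 0.197%, 0.0771%, 34.2% and 35.5% of all genes were called in either direction in these comparisons. An unadjusted p under 0.05 was reached there by 8, 2, 7 and 10 of the 10 genes. How many of all genes reached it was not computed. DESeq2 with the block called 9, 5, 8 and 10, where 6.78%, 4.36%, 46.3% and 46.5% of all genes were called in either direction. When the model held just the 8 libraries compared, the count for lipid + itaconate against lipid was 1, where 0.12% of all genes were called. For the interaction 0 genes were called by edgeR, with 8 at an unadjusted p under 0.05, as were 1004 of all 11675 genes. DESeq2 called 3, and 0.308% of all genes. With no filter on low counts 5 were called (Isg15, Usp18, Herc6, Rsad2 and Rtp4), where 0.918% of 25152 genes were called. The cause was not tested.

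Several changes that passed in no model turned sign. For lipid + itaconate against lipid, Herc6 was 0.079 and Rtp4 0.017 on the log2 scale without letter B. With 1 library left out, Herc6 ranged from −0.24 to 0.044, Mx2 from −0.038 to 0.054 and Rtp4 from −0.18 to 0.0069 in that comparison. Herc6 ranged from −0.057 to 0.20 for lipid + itaconate against itaconate, and the Mx1 interaction from −0.024 to 0.45. RLE normalization changed no count of the 10 genes. Mx1 had under 100 counts in every library and the largest standard errors of the 10 genes.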
